A study of Mus musculus with 16 samples.

Results

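Integrin chains of T cells were followed in splenic CD4+ T cells of mice whose thyroid hormone receptor alpha (TRα, gene Thra) cannot bind DNA. The 10 chains came from a fixed list, chosen with earlier results of these data known. They were Itga2, Itga4, Itga6, Itgae, Itgal, Itgav, Itgb1, Itgb2, Itgb3 and Itgb7. Each matched 1 of the 47643 Ensembl gene identifiers of both tables. TRaGS mice carry the DNA-binding mutant receptor and TRaWT mice are their wild-type littermates. From the spleen of each of 8 mice, 4 per genotype, CD25+ CD4+ Treg (called Treg) and CD25- CD4+ T cells, labelled naive (called CD4), were sorted, giving 16 libraries in 4 groups of 4. The receptor mutation is not described as limited to T cells, and the sort is described by CD4 and CD25. The libraries read the 3′ ends of polyadenylated RNA, and the values are read counts divided by 1 scaling factor per library, called normalised counts.

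Integrins are surface receptors made of 1 alpha and 1 beta chain, which reach the cell surface as a pair. On T cells they hold the cell to vessel walls, to other cells and to matrix. Itgb1 is shared by collagen receptors (with Itga2), VCAM-1 and fibronectin receptors (with Itga4), laminin receptors (with Itga6) and an RGD-binding receptor (with Itgav). Itgb7 forms the gut-homing receptor for MAdCAM-1 with Itga4 and the E-cadherin receptor CD103 with Itgae. Itgal and Itgb2 form LFA-1, the receptor for ICAM proteins, and Itgav with Itgb3 binds vitronectin.

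In Treg, 5 of the 10 chains changed with genotype, 4 higher and 1 lower in TRaGS. Itgb1, Itga4, Itgae and Itga2 rose and Itga6 fell. Of all 11051 genes tested in Treg with limma at an adjusted p under 0.05, 0.959% were called, 0.733% higher and 0.226% lower. In 6 of the 10 chains the genotypes did not overlap, these 5 and Itgal, against 5.07% of all genes tested. Of the 6, 5 were higher and 1 lower in TRaGS, against 2.84% and 2.23% of all genes. In CD4 none of the 10 was called, and 0.0575% of 10426 genes tested were. The median log2 fold change of the 10 chains was 0.43 in Treg, against 0.01 over all genes tested, and in CD4 it was -0.05 against -0.01. All 10 chains passed the filter on low values, a mean of 5 normalised counts, in both subsets. Itga2 passed it in Treg only through the TRaGS libraries (means 41.1 in TRaGS and 2.49 in TRaWT), so it had to differ there. Its call and its lack of overlap therefore add nothing to the counts of the other chains. The Treg median of the 10 chains also includes the log2 fold change of Itga2, so that median is not free of the filter. The list was chosen with earlier results of these data known, so the shares over all genes stand beside its counts without a test. In CD4 Itga2 passed only with replicate 4 of both genotypes included. Markers of another cell type moved with genotype in Treg: 14 B cell genes, all with reads, summed to 1766 to 2134 normalised counts in TRaGS Treg and 925 to 1402 in TRaWT Treg. An exact permutation test of their share of reads gave p = 0.0286 (two-sided), and 1 of the 14, the immunoglobulin heavy chain Ighm, was called higher (1510 ± 268 normalised counts in TRaGS Treg and 945 ± 134 in TRaWT Treg, limma adjusted p = 0.0115). B cells carry integrins too, and their part in the Treg results was not tested.

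**Figure D1:**
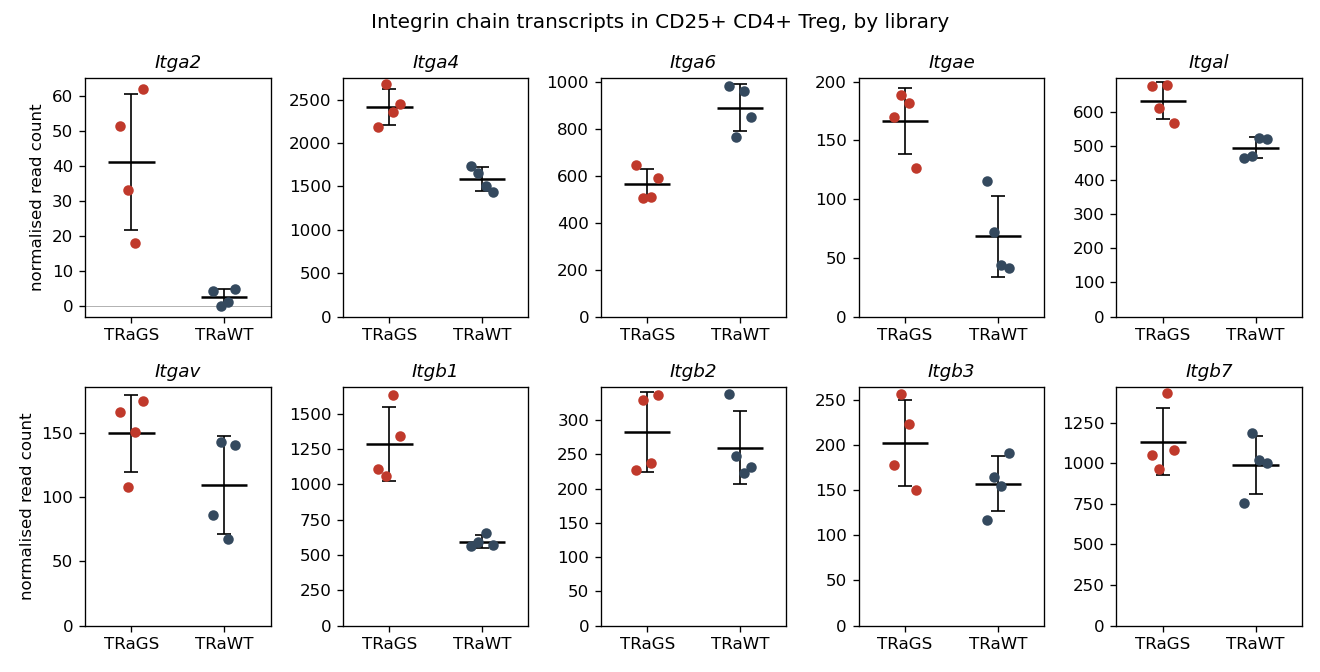
Normalised read counts of the 10 integrin chains in CD25+ CD4+ Treg, 1 panel per gene, with each point 1 library and bars for mean ± SD (n = 4 per genotype). Itga2, Itga4, Itgae, Itgal and Itgb1 lie higher in every TRaGS library than in any TRaWT library, and Itga6 lies lower.

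Among the beta chains, Itgb1 (ENSMUSG00000025809, chromosome 8, 128685654 to 128733200, GRCm38, plus strand), the common partner of many alpha chains, changed in Treg. It had 1109, 1058, 1631 and 1339 normalised counts in TRaGS Treg, replicates 1 to 4, against 561, 588, 658 and 567 in TRaWT Treg. All 4 TRaGS libraries stood above all TRaWT libraries, with replicates 3 and 4 highest. The means were 1284 ± 261 in TRaGS and 593 ± 44.6 in TRaWT (SD, n = 4 each), a log2 fold change of 1.09 ± 0.15 (SE, limma adjusted p = 1.30e-05). The call held in 20 of 21 alternative settings, including every leave-one-out fit. The exception was limma without a variance trend, which called none of the 11051 genes (Itgb1 adjusted p = 0.214).

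Itga4 (ENSMUSG00000027009), the alpha chain of the VCAM-1 and MAdCAM-1 receptors, had 2186, 2684, 2357 and 2448 normalised counts in TRaGS Treg, against 1731, 1661, 1502 and 1439 in TRaWT Treg. The genotypes did not overlap, and the libraries of each lay close together, with a coefficient of variation of 8.59% in TRaGS and 8.57% in TRaWT. The log2 fold change was 0.61 ± 0.13 (limma adjusted p = 0.00669), from means of 2419 ± 208 and 1583 ± 136. The animal numbers of TRaGS replicates 1 and 2 lie nearest those of the TRaWT mice, and those of replicates 3 and 4 lie apart. The call was lost with TRaGS replicates 1 and 2 alone (adjusted p = 0.0862, log2 fold change 0.62) and without a variance trend (0.422). The 3′ end of Itga4 (chromosome 2, 79255426 to 79333123, GRCm38) overlaps that of Cerkl on the opposite strand (79330543 to 79456785). Cerkl had 21.9 ± 7.68 normalised counts in TRaGS Treg and 25.3 ± 11.3 in TRaWT Treg, and whether the counting used strand is not given in the sources used here.

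Itga2 (ENSMUSG00000015533, chromosome 13, 114833081 to 114932100, minus strand), the alpha chain of a collagen receptor and better known from NK cells and platelets, was nearly silent in TRaWT Treg. Its normalised counts were 51.5, 33.3, 17.8 and 62.0 in TRaGS Treg (62, 46, 16 and 57 reads), against 4.11, 0, 1.17 and 4.70 in TRaWT Treg (5, 0, 1 and 4 reads). Every TRaGS library was above every TRaWT library. A count of 0 in TRaWT replicate 2 allows up to 3.02 normalised counts, taking 3 reads as the upper limit. The log2 fold change was 3.76 ± 0.89 (limma adjusted p = 0.0207) on the scale of log2(value + 1), and it was 4.16 with a pseudocount of 0.5 and 2.56 with one of 5. The fit no longer called Itga2 after removal of TRaGS replicate 1 (adjusted p = 0.147), 2 (0.0610) or 4 (0.185) or TRaWT replicate 2 (0.0506). Nor was it called with TRaGS replicates 1 and 2 alone (0.323), without a filter (0.145), with a mean of at least 20 (0.124) or without a variance trend (0.142).

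Promoter sequences show the start regions of the called chains that rose together in Treg and have an entry in the RefSeq promoter table, which held 5 of the 10 chains (Itga2, Itga4, Itgav, Itgb1 and Itgb7). Each runs 5′ to 3′ over 300 bases, 250 before and 50 after the gene's start, and capitals mark GGGCGG or its reverse complement, the GC box bound by Sp and Krüppel-like factors.
Itgb1 (GRCm38.p6, chr8:128685404-128685703, plus strand): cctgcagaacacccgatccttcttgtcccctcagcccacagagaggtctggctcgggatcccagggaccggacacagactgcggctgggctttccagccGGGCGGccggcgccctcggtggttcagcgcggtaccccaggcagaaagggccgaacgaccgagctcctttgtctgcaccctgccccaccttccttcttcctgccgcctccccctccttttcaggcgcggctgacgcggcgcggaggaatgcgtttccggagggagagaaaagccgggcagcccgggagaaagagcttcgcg
Itga4 (GRCm38.p6, chr2:79255176-79255475, plus strand): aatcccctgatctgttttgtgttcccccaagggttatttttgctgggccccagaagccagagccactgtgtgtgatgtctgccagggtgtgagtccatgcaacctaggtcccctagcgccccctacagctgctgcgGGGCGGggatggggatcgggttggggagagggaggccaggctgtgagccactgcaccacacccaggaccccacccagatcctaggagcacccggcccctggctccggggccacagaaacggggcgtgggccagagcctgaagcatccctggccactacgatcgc
Itga2 (GRCm38.p6, chr13:114932051-114932350, minus strand): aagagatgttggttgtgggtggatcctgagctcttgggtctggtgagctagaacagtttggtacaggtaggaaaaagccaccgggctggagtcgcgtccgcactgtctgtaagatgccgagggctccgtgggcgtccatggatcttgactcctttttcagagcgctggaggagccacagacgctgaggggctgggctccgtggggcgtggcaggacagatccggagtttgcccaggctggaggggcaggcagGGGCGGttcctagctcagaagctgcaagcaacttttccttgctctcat
The hexamer AGGTCA, to which a thyroid hormone receptor binds, searched on both strands, is in none of the 5 promoters and in 16.3% of all 32851 promoters of that length. Its direct repeat, AGGTCA and again AGGTCA after a spacer of 4 bases of any kind, overlaps the single hexamer by construction and is in 0.0152% of all promoters and in none of the 5. The GC box is in 4 of the 5, all but Itgb7, and in 35.7% of all promoters. The GC content of the 5 ran between 56.3% and 67.3%, against a median of 52.7% over all promoters. These letters describe the window alone.

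Itgae (ENSMUSG00000005947), the alpha chain of the E-cadherin receptor CD103, had 170, 189, 182 and 126 normalised counts in TRaGS Treg, against 115, 72.4, 44.3 and 41.1 in TRaWT Treg. The lowest TRaGS library, replicate 4, lay just above the highest TRaWT library, replicate 1. The means were 167 ± 28.1 and 68.2 ± 34.3, with a log2 fold change of 1.38 ± 0.33 (limma adjusted p = 0.0194). Itgae was not called when TRaGS replicate 1 (adjusted p = 0.0833), 2 (0.0648) or 3 (0.0855) or TRaWT replicate 3 (0.0558) or 4 (0.0793) was left out. Nor was it called with TRaGS replicates 1 and 2 alone (0.122), without a filter (0.0537) or without a variance trend (0.345). In these fits the log2 fold change stayed between 1.19 and 1.51. Itgae lies on chromosome 11 (73090583 to 73147446), 25.6 megabases from Thra, and Haspin lies inside it on the opposite strand. Haspin had 14.8 ± 11.9 normalised counts in TRaGS Treg and 42.8 ± 21.7 in TRaWT Treg.

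Itga6 (ENSMUSG00000027111), the alpha chain of laminin receptors, was the chain that fell. It had 648, 505, 512 and 592 normalised counts in TRaGS Treg, against 983, 769, 965 and 852 in TRaWT Treg. No TRaGS library reached the lowest TRaWT library. The means were 564 ± 68.1 and 892 ± 101, with a log2 fold change of -0.66 ± 0.16 (limma adjusted p = 0.0199). Leaving out TRaGS replicate 3 ended the call (adjusted p = 0.0871), as did leaving out TRaWT replicate 1 (0.0769) or TRaWT replicate 3 (0.0684). It was also lost with TRaGS replicates 1 and 2 alone (0.212), without a filter (0.0537) and without a variance trend (0.419). In these fits the log2 fold change stayed between -0.66 and -0.61. Itga6 (71745616 to 71858416), Itga4 and Itgav (83724397 to 83806916) all lie on chromosome 2, and the first was lower, the second higher and the third not called.

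The other 5 chains did not pass in Treg: Itgal (chromosome 7, 127296260 to 127335138), Itgb2 (chromosome 10, 77530252 to 77565708), Itgb7 (chromosome 15, 102215995 to 102231944), Itgav and Itgb3. Itgal, the alpha chain of LFA-1, had 677, 612, 679 and 568 normalised counts in TRaGS Treg and 467, 471, 524 and 520 in TRaWT Treg. These groups did not overlap, but the difference of 0.35 ± 0.16 on the log2 scale missed the threshold over all genes (limma adjusted p = 0.490). Its partner Itgb2 had 283 ± 58.5 and 260 ± 53.0 normalised counts in TRaGS and TRaWT Treg (log2 fold change 0.12 ± 0.21). Itgb7, the partner of Itgae and Itga4, had 1134 ± 207 and 990 ± 178 (0.20 ± 0.15). Itgav had 150 ± 30.0 and 109 ± 38.2 (0.50 ± 0.29) and Itgb3 had 202 ± 47.8 and 157 ± 30.6 (0.35 ± 0.25). In these 4 the genotypes overlapped, with limma adjusted p between 0.652 and 0.936.

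In CD4 most chains varied more between animals of 1 genotype than in Treg, by coefficient of variation 9 of 10 in TRaGS (all but Itgb7) and 8 of 10 in TRaWT (all but Itgae and Itgb3). The coefficient of variation of Itgb1 was 37.5% in TRaGS CD4 and 32.1% in TRaWT CD4, and that of Itgav was 81.9% and 73.7%. Itgb1 had 652, 327, 598 and 890 normalised counts in TRaGS CD4, against 709, 619, 720 and 315 in TRaWT CD4. The groups overlapped (log2 fold change 0.05 ± 0.29, limma adjusted p = 0.988), and the sign turned in 6 of 21 alternatives. In this subset limma took each gene's variance from the trend over all genes, so an SE here is not the spread of the single gene. In Treg limma also drew each gene's variance toward that trend, with 36.8 prior degrees of freedom. An SE there is thus not the gene's own spread alone.

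**Figure D2:**
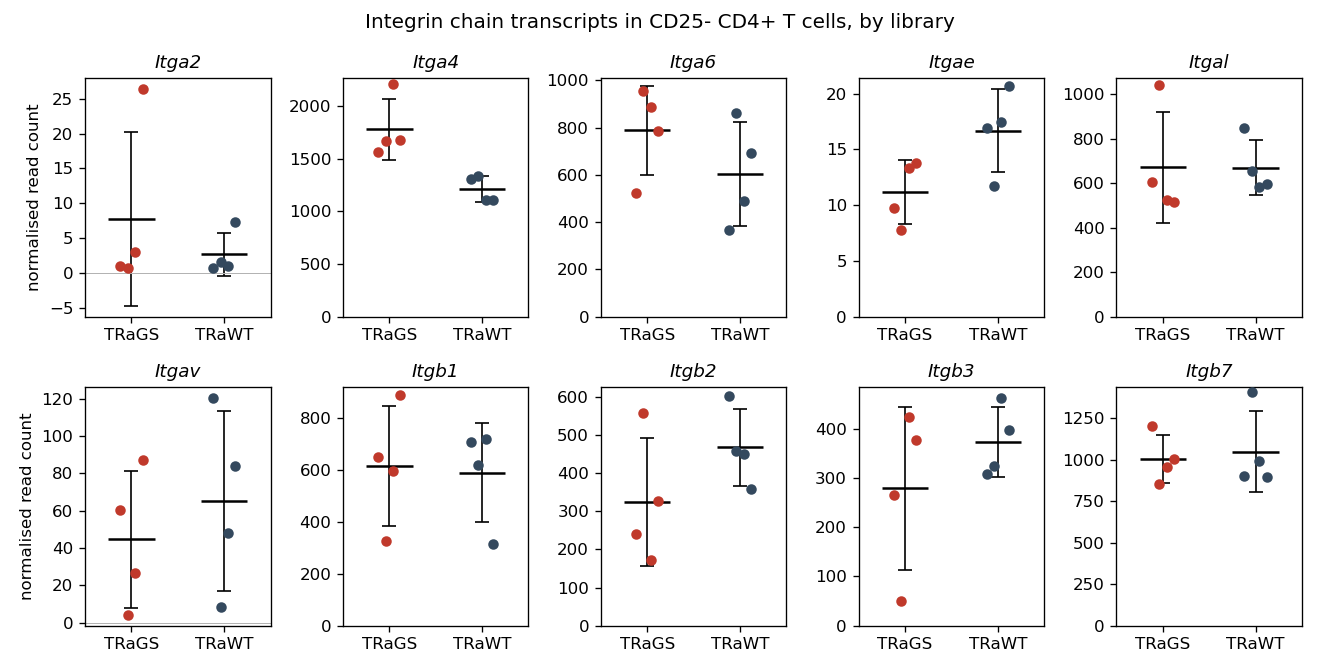
Normalised read counts of the 10 integrin chains in CD25- CD4+ T cells, 1 panel per gene, with each point 1 library and bars for mean ± SD (n = 4 per genotype). Itga4 is the chain whose TRaGS libraries all lie above the TRaWT libraries, and Itgb1 overlaps.

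Itga4 was the 1 chain of 10 without overlap in CD4, where 3.16% of all genes tested had none (1.43% higher and 1.73% lower in TRaGS). It had 1562, 1669, 2206 and 1678 normalised counts in TRaGS CD4, against 1311, 1333, 1104 and 1104 in TRaWT CD4. The log2 fold change of 0.54 ± 0.22 did not pass (limma unadjusted p = 0.0119, adjusted p = 0.943), and it stayed positive in all 21 alternatives, between 0.42 and 0.66. Itgb3 had 266, 50.9, 423 and 377 normalised counts in TRaGS CD4 and 308, 324, 464 and 399 in TRaWT CD4. TRaGS replicate 2 was far below the rest, and the log2 fold change of -0.77 ± 0.37 did not pass (limma unadjusted p = 0.0358, adjusted p = 0.947). Without that library the log2 fold change of Itgb3 was -0.08 ± 0.30 (limma unadjusted p = 0.790, adjusted p = 0.989), so its value rests on 1 library. With all libraries, Itga4 and Itgb3 had an unadjusted limma p under 0.05, as did 539 of all genes tested. On recovered reads edgeR and DESeq2 also called 0 of the 10, DESeq2 giving no adjusted p for Itga2. Itgb3 lies 5.8 megabases from Thra on chromosome 11 (104608000 to 104670476).

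The remaining chains overlapped between genotypes in CD4. Itgb2 had 325 ± 168 normalised counts in TRaGS CD4 and 468 ± 101 in TRaWT CD4 (log2 fold change -0.64 ± 0.33), and Itga6 had 788 ± 189 and 603 ± 219 (0.42 ± 0.27). Itgal had 672 ± 249 and 671 ± 123 (-0.04 ± 0.27), and Itgb7 had 1004 ± 146 and 1049 ± 242 (-0.05 ± 0.24). Itgav had 44.6 ± 36.6 and 65.2 ± 48.0 (-0.65 ± 0.92). Itgae stood at 10 to 13 reads per TRaGS library and 14 to 21 per TRaWT library (-0.55 ± 1.26, and an SE of 0.38 without a variance trend, where limma adjusted p was 0.955). Itga2 had 1 to 23 reads per TRaGS library and 1 to 6 per TRaWT library (0.54 ± 1.40), 23 of them coming from 1 library, TRaGS replicate 4. Adjusted p for these 7 chains ran between 0.947 and 0.988 with limma.

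**Figure D3:**
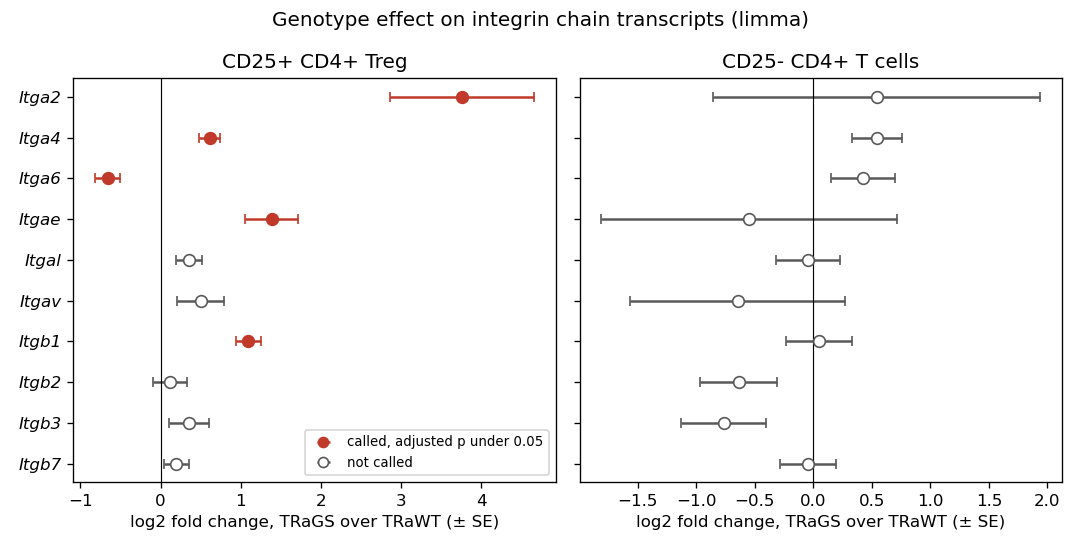
Log2 fold change of each integrin chain, TRaGS over TRaWT, with its SE from limma, in Treg (left) and CD4 (right), on x axes of different range. Filled red points are called and open grey points are not. In Treg 5 points are filled, Itga6 on the negative side, and none in CD4.

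A limma fit to the within-animal gap between Treg and CD4, on the scale of log2(value + 1), asked whether the genotype acted alike in both subsets. Itga2 differed by 3.22 ± 1.01, Itgae by 1.93 ± 0.69, Itgb1 by 1.05 ± 0.50 and Itga6 by -1.08 ± 0.48 between subsets, positive where TRaGS over TRaWT was higher in Treg. None of the 10 passed over 9914 genes (limma adjusted p from 0.735 to 0.988), nor did any other gene (0%). Itga2 and Itgae had an unadjusted p under 0.05, as did 591 of all genes tested. Genes had to pass the filter in both subsets, and Itga2 passed it in Treg only through the TRaGS libraries. The difference for Itga2 therefore follows in part from the filter, and its p-value is no added evidence. An effect in Treg without a call in CD4 is not shown to differ between them. For Itga4 the difference was 0.07 ± 0.38, with a log2 fold change of 0.61 in Treg and 0.54 in CD4.

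The chains were set side by side as the 8 heterodimers that they can form. In Treg both chains of the Itga2/Itgb1 and Itga4/Itgb1 pairs rose, though Itga2 passed the filter there only through the TRaGS libraries. In the Itga6/Itgb1 pair the partners moved in opposite directions, Itga6 lower and Itgb1 higher in TRaGS. In the Itga4/Itgb7 and Itgae/Itgb7 pairs the alpha chain rose while Itgb7 did not pass, and in Itgav/Itgb1 the beta chain rose while Itgav did not pass (log2 fold change 0.50 ± 0.29). In Itgal/Itgb2 and Itgav/Itgb3 neither chain was called. In CD4 no chain of any pair was called.

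The log2 ratio of alpha to beta transcript in each library measured whether partners changed by different amounts. For Itga6/Itgb1 it was -1.17 ± 0.37 in TRaGS Treg and 0.58 ± 0.17 in TRaWT Treg (SD, n = 4 each), a difference of -1.76 ± 0.21 (SE). All TRaGS ratios were below all TRaWT ratios, so Itgb1 exceeded Itga6 in every TRaGS Treg library and was below it in every TRaWT one, on counts not corrected for how well each 3′ end is captured. For Itga2/Itgb1 the ratio was -5.05 ± 0.96 in TRaGS Treg and -7.72 ± 1.23 in TRaWT Treg, a difference of 2.67 ± 0.78, also without overlap. With a pseudocount of 5 these Itga2/Itgb1 ratios overlapped. Both had an exact permutation p of 0.0286 (two-sided), the smallest that 4 against 4 allows, and adjusted over the 16 ratios tested it was 0.183. Itga2 passed the filter in Treg only through the TRaGS libraries. The separation of Itga2/Itgb1 therefore follows in part from the filter, and its p-value is no added evidence.

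For Itga4/Itgb1 in Treg the ratio was 0.93 ± 0.33 in TRaGS and 1.41 ± 0.19 in TRaWT (difference -0.48 ± 0.19, exact permutation p = 0.0571, adjusted 0.183). For Itgae/Itgb7 it was -2.76 ± 0.34 in TRaGS Treg and -3.95 ± 0.86 in TRaWT Treg (difference 1.19 ± 0.46, exact permutation p = 0.0857, adjusted 0.229). For Itgav/Itgb1 in Treg the genotypes overlapped (difference -0.60 ± 0.34, exact permutation p = 0.114, adjusted 0.229). For Itga4/Itgb7 the difference was 0.41 ± 0.23 in Treg and 0.59 ± 0.22 in CD4. The Itgal/Itgb2 ratio differed by 0.24 ± 0.27 in Treg and 0.60 ± 0.22 in CD4. All 8 ratios overlapped between genotypes in CD4, with exact permutation p from 0.0571 to 0.857 before adjustment. The heterodimers share chains, so these ratios are not separate pieces of evidence.

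**Figure D4:**
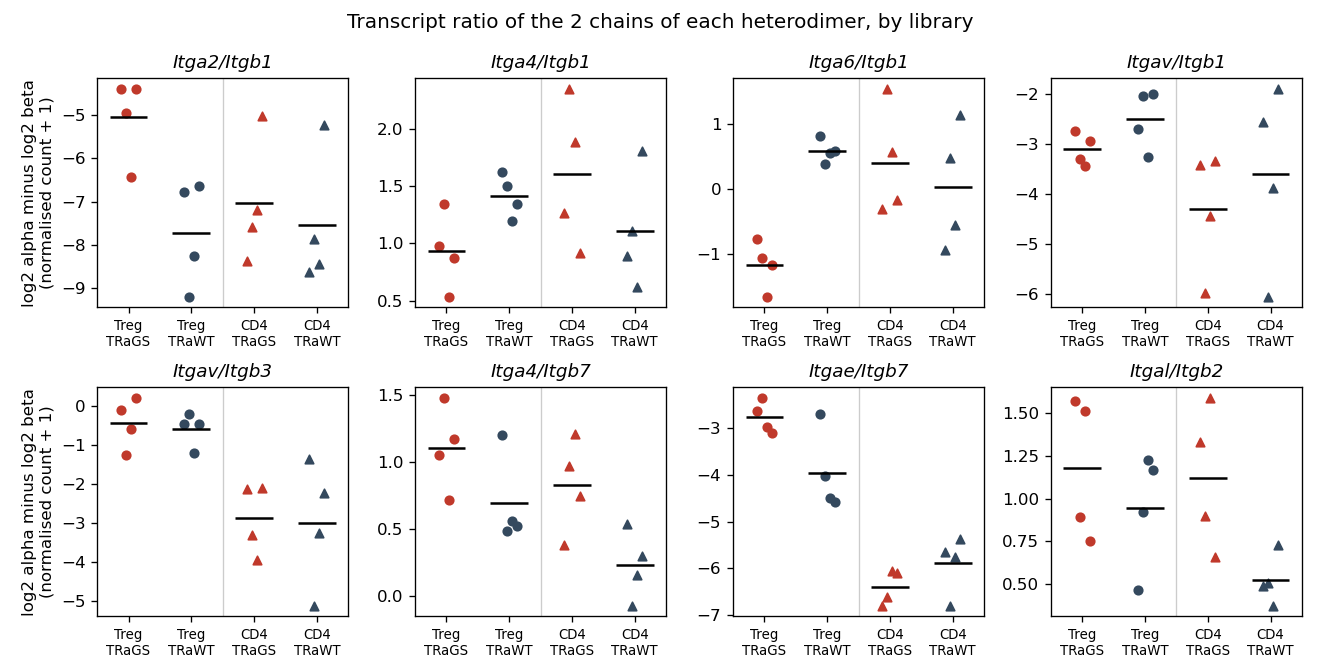
Log2 alpha minus log2 beta normalised count (each + 1) for the 8 heterodimers, with each point 1 library, circles for Treg, triangles for CD4 and lines for group means (n = 4). In Treg the genotypes separate for Itga6/Itgb1, where TRaGS lies below TRaWT, and for Itga2/Itgb1, where it lies above. Itga2 passed the filter in Treg only through the TRaGS libraries.

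By subset, levels were described as RPM, the recovered reads of each library scaled to 1 common total, with no test, since the tables were normalised separately. The level of a chain across sorted cells cannot tell fewer expressing cells from less RNA per cell. Itgb1 stood at 403 ± 64.7 RPM in TRaGS Treg and 190 ± 81.5 in TRaGS CD4, and at 181 ± 16.1 in TRaWT Treg and 189 ± 67.9 in TRaWT CD4. Every TRaGS Treg library was above every other library, and the other 3 groups overlapped. Itga4 ran in the order 765 ± 87.3 in TRaGS Treg, 539 ± 98.0 in TRaGS CD4, 484 ± 70.8 in TRaWT Treg and 385 ± 62.7 in TRaWT CD4. In that order TRaGS Treg lay above the rest without overlap, and each later neighbour overlapped with the next.

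Itgae was the chain set apart by subset, as known for CD103 on Treg. It had 52.9 ± 10.3 RPM in TRaGS Treg and 3.42 ± 1.06 in TRaGS CD4, and 21.1 ± 11.3 in TRaWT Treg and 5.23 ± 0.96 in TRaWT CD4. Treg were higher in 4 of 4 animals of each genotype, and the subsets did not overlap in either genotype. Itgb3 went the other way, at 64.2 ± 17.0 in TRaGS Treg and 86.7 ± 53.1 in TRaGS CD4, and 47.7 ± 8.30 in TRaWT Treg and 117 ± 19.7 in TRaWT CD4. Its subsets did not overlap in TRaWT, but did in TRaGS. Itga6 had 178 ± 23.6 RPM in TRaGS Treg and 238 ± 53.5 in TRaGS CD4, against 271 ± 30.4 in TRaWT Treg and 189 ± 68.6 in TRaWT CD4. Treg were higher than CD4 in 1 of 4 TRaGS animals and in 3 of 4 TRaWT animals for this chain. Itga2 had 13.0 ± 6.04 in TRaGS Treg and 2.50 ± 4.07 in TRaGS CD4, against 0.739 ± 0.670 in TRaWT Treg and 0.813 ± 0.860 in TRaWT CD4.

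Itgav was higher in Treg in 4 of 4 TRaGS animals, at 47.2 ± 8.48 RPM in Treg and 14.0 ± 11.9 in CD4, and in 3 of 4 TRaWT animals, at 33.4 ± 12.2 and 20.6 ± 15.9. Itgb7 stood close together in the 4 groups, at 357 ± 52.3 in TRaGS Treg, 305 ± 53.7 in TRaGS CD4, 302 ± 64.5 in TRaWT Treg and 333 ± 87.5 in TRaWT CD4. Neighbouring groups in its order overlapped. For LFA-1, Itgal had 200 ± 19.9 in TRaGS Treg, 200 ± 60.0 in TRaGS CD4, 151 ± 4.63 in TRaWT Treg and 213 ± 51.3 in TRaWT CD4. Itgb2 had 89.4 ± 19.4 in TRaGS Treg, 96.8 ± 44.7 in TRaGS CD4, 79.6 ± 19.1 in TRaWT Treg and 149 ± 41.2 in TRaWT CD4. Treg were higher than CD4 for Itgal in 3 of 4 TRaGS animals and 0 of 4 TRaWT animals, and for Itgb2 in 2 of 4 TRaGS animals and 0 of 4 TRaWT animals.

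**Figure D5:**
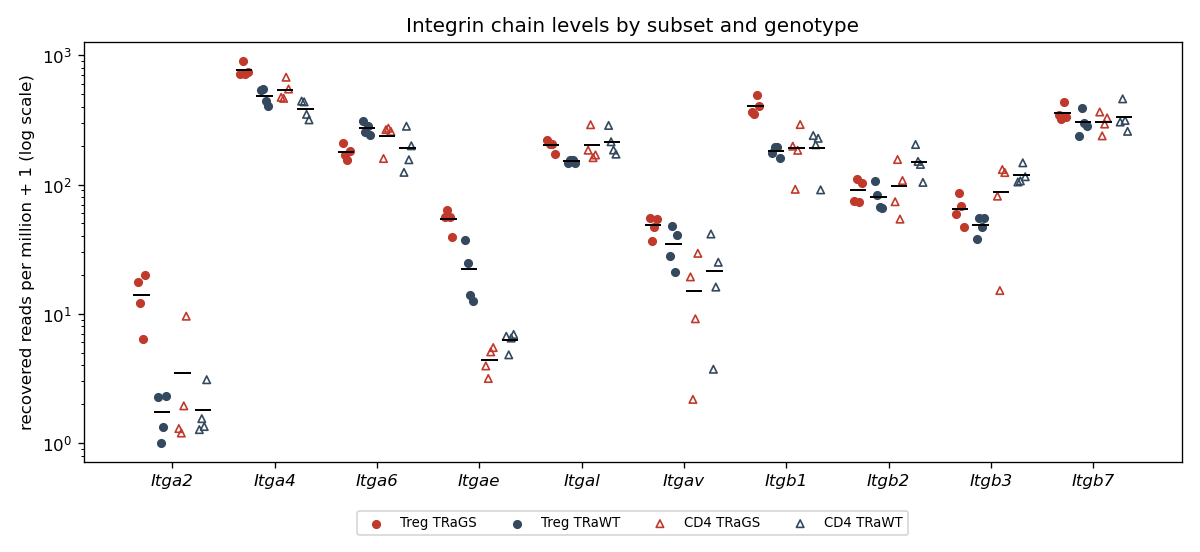
RPM of recovered reads (plus 1, log axis) of each integrin chain, with each point 1 library, filled circles for Treg, open triangles for CD4 and lines for means of 4. Itgae lies higher in Treg than in CD4 in both genotypes, and Itgb1 stands out in TRaGS Treg.

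The genes whose pattern over the 8 Treg libraries was most like that of Itgb1, by Pearson correlation of log2(value + 1), were Sostdc1 (r = 0.967), Syt11 (0.960), Hyal1 (0.957), Hif1a (0.952) and Atg5 (0.946). Of these, Sostdc1 (31.2 and 1.34 normalised counts in TRaGS and TRaWT Treg, limma adjusted p = 0.0303) was called, and Syt11, a synaptotagmin, was called higher with Itgb1 (736 and 416 normalised counts in TRaGS and TRaWT Treg, limma adjusted p = 0.0103). Most like Itga4 were Tnfrsf18 (0.990), Acsbg1 (0.989), Nrp1 (0.984), Casp1 (0.983) and Tacc1 (0.968). Of these Tnfrsf18 encodes the costimulatory receptor GITR and Nrp1 the Treg surface protein neuropilin. In CD4 Itga4 was most like Nav2 (0.941), Leng8 (0.896), Nrip1 (0.889), Ets1 (0.871) and Sept8 (0.868). These are the highest of the correlations with all genes tested, over 8 libraries that include the genotype difference, and they are a description. Sostdc1 and Hyal1 in Treg and Sept8 in CD4 had TRaWT means of 1.34, 1.04 and 1.41 normalised counts. They passed the filter only through the TRaGS libraries. Their genotype difference therefore follows in part from the filter, and the call of Sostdc1 is no added evidence.

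Among genes that work with integrins, no member of 3 lists was called in either subset. Over all genes tested, 0.959% were called in Treg and 0.0575% in CD4, so counts of 0 in short lists lie near that share. Of 19 genes that activate integrins or link them to the T cell receptor, 17 were tested in Treg, 0 passed, and their median log2 fold change was -0.05. Rassf5, which carries the Rap signal to LFA-1, had 586 ± 123 normalised counts in TRaGS Treg and 775 ± 68.9 in TRaWT Treg (limma unadjusted p = 0.0141, adjusted 0.364). Of 20 adhesion-site proteins, 15 were tested in Treg with a median of 0.09, and of 18 ligands and ligand-related genes 6 were tested with a median of -0.22, and 0 passed in either list. In CD4 the medians were 0.09, 0.20 and 0.00 over 17, 16 and 5 tested genes, with 0 passing in each list. In 15 of those 17 activation genes the CD4 genotypes overlapped, Sharpin and Cytip being the exceptions. Over all genes tested in CD4, 3.16% were without overlap. In Treg 0 of the 17 were without overlap, against 5.07% of all genes tested there. Rassf5, Sharpin and Cytip were chosen after their values were seen.

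Thra itself had 135 ± 52.9 normalised counts in TRaGS Treg and 133 ± 15.3 in TRaWT Treg, and 115 ± 48.7 in TRaGS CD4 and 122 ± 51.2 in TRaWT CD4, which does not check the labels, since the mutation alters DNA binding. The libraries held 2679119 to 5095278 recovered reads in CD4 and 2912038 to 4154027 in Treg. Foxp3, the Treg factor, had 1156 ± 199 and 1165 ± 65.4 normalised counts in TRaGS and TRaWT Treg and 116 ± 58.7 and 80.9 ± 38.0 in TRaGS and TRaWT CD4, and Cd4 was at 713 or above in every library. Of 11 T cell identity genes, Ikzf2, which encodes Helios, was called (5466 ± 668 normalised counts in TRaGS Treg and 3751 ± 432 in TRaWT Treg, limma adjusted p = 0.0140). Plasma cell genes summed to 54.4 to 134 in TRaGS Treg and 36.2 to 105 in TRaWT Treg, with Iglv1 at 0.

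Basophils, NK cells and platelets also carry Itga2, and their markers were summed in each library. Of 6 basophil and mast cell genes 5 had no read in any Treg library (Cpa3, Fcer1a, Gata2, Mcpt8 and Prss34), and the sum reached 1.12 normalised counts. The 8 NK cell genes summed to 43.5 to 148 in TRaGS Treg and 84.5 to 129 in TRaWT Treg, with Klra8 at 0. The 9 platelet genes summed to 0.723 to 29.9 in TRaGS Treg and 0 to 18.1 in TRaWT Treg, with Tubb1, Treml1, Gp9, Clec1b and Gp1ba at 0. Of the 9, Itga2b, itself an integrin chain, alone ran from 0.723 to 29.9 in TRaGS Treg and 0 to 17.1 in TRaWT Treg. In CD4 the NK cell sum was 166 to 241 in TRaGS and 81.7 to 96.9 in TRaWT (exact permutation p = 0.0286, two-sided), with Ncr1 and Klra8 at 0. Eomes, which T cells also express, held most of that sum and of its difference, at 141 ± 20.2 normalised counts in TRaGS CD4 and 53.7 ± 25.96 in TRaWT CD4 without overlap (limma adjusted p = 0.947). Prf1 had 30.0 ± 35.0 and 9.52 ± 6.65 and Klrb1c 27.7 ± 34.2 and 21.0 ± 15.8 in TRaGS and TRaWT CD4, both overlapping. The part of these genes' source cells in the CD4 values was not tested. The CD8, macrophage and dendritic cell, neutrophil and erythroid sums had exact permutation p from 0.229 to 0.943 in both subsets.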

How the data were processed

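RNA of splenic CD4 and Treg cells from 8 mice was profiled with a 3′ mRNA kit read forward, per the labels' protocols. Per the submitters' processing notes the build was GRCm38. Which aligner and counter were run, and whether strand was used, is not given in the sources used here. Each of the 2 deposited tables holds a scaled signal, in which the authors had divided a library's read counts by a single factor, table by table. Values were whole multiples of 1 step in all 16 libraries (100% within 0.001), which gave the reads back, and with these edgeR called 3 CD4 genes and 90 Treg genes. Depth is the total of recovered reads, and intervals or floors cover counting error only.

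Symbols matched 47224 of 47643 identifiers, and coordinates are GENCODE's on the same build. After a filter (mean normalised count 5 or more in a subset's libraries), log2(value + 1) went into limma 3.58.1 (variance trend, Benjamini-Hochberg over all genes tested, threshold 0.05) in R 4.3.3. Fold changes are TRaGS over TRaWT and understate low genes. Prior degrees of freedom were 36.8 in Treg, 2.64 for the difference between subsets and infinite in CD4. The animal number in the titles paired the libraries of 1 mouse. No replicates agreed within sampling noise (chi-square per degree of freedom at least 7.44). Heterodimer ratios used exact permutation tests (scipy 1.17.1).

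Named genes were the 10 members, called members of the other lists and the 5 genes most like the leading members. The members and lists were chosen with earlier results of these data known. Alternatives included edgeR 4.0.16 and DESeq2 1.42.0. The fits were tested on simulated data.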

Additional observations from a re-analysis of the deposited data

Results flagged for a closer look

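Of 40 groups of 4 libraries examined, 2 held a library far from the other 3, where chance gives about 1 in 20. Itga2 in CD4 TRaGS replicate 4 had 26.4 normalised counts, against 0.707 to 3.08 in the other TRaGS CD4 libraries. Itga2 in CD4 TRaWT replicate 4 had 7.32 normalised counts, against 0.807 to 1.67 in the other TRaWT CD4 libraries. No comparison between genotypes was called for Itga2 in CD4.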

How the results depend on the processing

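Of the 10 chains, 5 were called in Treg, against 2 without the filter on low values, 0 without a variance trend and 1 with TRaGS replicates 1 and 2 alone. Leaving out 1 library gave 3 to 4, with 3 after removal of TRaGS replicate 1, 2 or 3 or TRaWT replicate 3. The other alternatives gave 4 or 5, among them 5 with edgeR, 5 with DESeq2, 5 with each scaling and 5 with the replicate block. In CD4, and for the difference between subsets, the count was 0 under each alternative, leave-one-out fits included, where it ran from 0 to 0. No fold change of a chain in Treg turned its sign under any alternative. Over all alternatives and comparisons, chains kept sign and call in 529 fits, lost a call in 25 and turned sign in 16, of which 15 were in CD4. Only the 5 chains called in Treg could lose a call. Of 21 alternatives each, Itga2 and Itgae lost it in 8, Itga6 in 6, Itga4 in 2 and Itgb1 in 1.

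In CD4 the sign turned as follows, the cause being not tested. Itgal, at -0.04, was 0.00 with DESeq2 (0.00179) and 0.26 with TRaGS replicates 1 and 2 alone, and -0.28 to 0.075 with a library left out. Itgb1, at 0.05, was -0.060 with upper-quartile scaling, -0.079 with quantile normalisation and -0.28 with TRaGS replicates 1 and 2 alone, and -0.23 to 0.32 with a library left out. Itgb7, at -0.05, was 0.025 with array weights and -0.14 to 0.10 with a library left out. Itgav, at -0.65, was -1.42 to 0.19 with a library left out. The difference for Itga4, at 0.07, was -0.011 to 0.19 with a library left out. Over all genes in Treg 106 were called, against 62 without the filter, 0 without a variance trend, 56 and 61 without TRaGS replicates 3 and 4 and 42 with replicates 1 and 2 alone. In CD4 6 were called, against 1 without the filter, 3 with edgeR, 10 with DESeq2, 0 without a variance trend, 27 with TRaGS replicates 1 and 2 alone and 3 without TRaWT replicate 2, 3 or 4. Upper-quartile scaling moved the median of all genes in CD4 to -0.11, against -0.01.

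Ratios without overlap in Treg numbered 2, against 1 with a pseudocount of 5 and 2 to 4 with a library left out, and in CD4 0, against 0 to 1. The 2 in Treg included Itga2/Itgb1, whose alpha chain passed the filter only through the TRaGS libraries. The genotypes share replicate numbers but not animals. Same-numbered libraries had deviations correlated between -0.02 and 0.05, so the numbers do not pair them. The replicate block gave 5 chains in Treg and 0 in CD4 and for the difference. Itga2 had at most 62 reads in a library. In CD4 it fell under the filter without replicate 4 of either genotype and with TRaGS replicates 1 and 2 alone, and Itga2 and Itgae did so in CD4 with a mean of at least 20, so those fits give no value.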

Other observations

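Of 16 integrin chains outside the list of 10, 7 passed the filter in Treg and 5 in CD4, and 0 were called in either subset. With 0.959% of all genes tested called in Treg and 0.0575% in CD4, counts of 0 among so few chains lie near that share. In Treg 2 of the 7 were without overlap between genotypes, against 5.07% of all genes tested. Itgb8, whose pair with Itgav activates latent TGF-beta, had 134 ± 24.6 normalised counts in TRaGS Treg and 95.1 ± 8.14 in TRaWT Treg (SD, n = 4 each), without overlap and without passing (limma adjusted p = 0.662). Itga9, a partner of Itgb1, had 4.12 ± 2.88 in TRaGS Treg and 22.7 ± 18.1 in TRaWT Treg, also without overlap (adjusted p = 0.438). Itga2b had 16.2 ± 12.4 and 4.86 ± 8.24 in TRaGS and TRaWT Treg (adjusted p = 0.635). Vcam1, a ligand of the Itga4/Itgb1 pair, had 9.87 ± 5.78 in TRaGS Treg and 0.252 ± 0.503 in TRaWT Treg (adjusted p = 0.421). Vcam1 and Itga2b passed the filter in Treg only through the TRaGS libraries and Itga9 only through the TRaWT libraries. The genotype difference of Vcam1, Itga2b and Itga9 therefore follows in part from the filter. All genes named here were chosen after their values were seen.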
